A study of Rattus norvegicus with 28 samples.

Results

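Ribosomal protein transcripts of the injured rat hippocampus were followed on gene expression arrays of 14 hippocampi, together with the transcripts of gene copies and paralogs that carry a ribosomal protein name. Members were chosen by name, with earlier results of these data known. Each array probe was named through the RefSeq accession that the array design gives it, and a probe counted as a member when its rat symbol began with Rpl or Rps (large or small subunit ribosomal protein, Rps6k kinases left out). Of 30367 probes other than controls, 18643 had a symbol and 148 were members, for 86 genes. A member was kept when some group had it well above background on each of its arrays. That left 143 probes of 82 genes, of 10220 named genes and 17322 probes kept in all. These were 130 probes of 74 parent genes (80 probes of 44 genes of the large, 60S subunit and 50 probes of 30 genes of the small, 40S subunit), 7 probes of 5 named paralogs and 6 probes of 3 copies. The 5 members not kept were the single probes of Rpl27l2, Rps7-ps20, Rps12l4 and Rpl3l and one of the probes of Rpl36a. The RefSeq table held 1192 genes with such symbols, 883 of them pseudogenes, so most copies had no probe.

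All rats were adult male Sprague-Dawley rats, an outbred strain, killed 24 h after surgery. Sham rats (2 arrays) were prepared for injury without receiving it, and TBI rats (3 arrays) received a severe fluid percussion injury, a pressure pulse against the dura. Injured rats in the TBI+Imipramine, TBI+Prozac and TBI+Zoloft groups (3 arrays each) were also given, 1 h after injury, imipramine (a tricyclic antidepressant), fluoxetine or sertraline (both selective serotonin reuptake inhibitors). RNA came from the whole hippocampus, and the labels name no agent for the Sham and TBI rats, while the study's methods speak of rats given an antidepressant or a vehicle. The arrays lay on 3 slides. Slide 1 held the 3 TBI arrays and replicate 1 of TBI+Prozac, slide 2 held the other 8 drug arrays, and slide 3, scanned on another day, held only the 2 Sham arrays, so slide and injury cannot be told apart in any comparison with Sham. Probes above background numbered 14676 on replicate 1 of TBI and 15846 to 18196 on the other arrays, and no spot was saturated. Values below are log2 of the probe's processed signal relative to the 75th percentile that the detected probes of its array reached. This scaling left the median of all 17322 kept probes 0.20 higher in TBI+Imipramine and 0.15 higher in TBI+Prozac than in TBI. The shift is given beside the medians of the parents. Values of single probes and of marker lists in these groups include it, mostly without restating it. P-values come from 1 limma fit over the 14 arrays with Benjamini-Hochberg adjustment over all kept probes, and a probe is called at an adjusted p under 0.05.

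A ribosome joins a large and a small subunit, each made of ribosomal RNA and one copy of most of its ribosomal proteins, and cells make the proteins in matched amounts. Most of the mRNAs begin with a run of pyrimidines (the 5′ terminal oligopyrimidine motif) through which the mTOR pathway controls their translation. Each protein is usually encoded by one parent gene with introns, and mammalian genomes also hold many processed copies of these highly expressed genes, most of them without function, besides a few paralogs that make protein.

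The pyrimidine start is shown first because it is the sequence feature for which ribosomal protein mRNAs are known. It was annotated for fewer than all of the parents. Promoter windows of RefSeq genes (GRCr8) were found for 59 of the 74 parent genes, 5 of 5 paralogs and 2 of 3 copies. A pyrimidine start was counted as a C at the annotated start followed by at least 4 further C or T, on the strand of the gene only. It stood at 23 of 59 parent starts (39.0%), at 881 of all 33469 promoters in the table (2.63%), and at none of the 7 paralog and copy starts. Within 10 bases on either side of the start the same run was present in 76.3% of the parents and 28.9% of all promoters, so many parent starts are annotated a few bases away from such a run. The windows below run from 15 bases before the start to 15 bases from it on, with the pyrimidine run that opens the transcript in capitals where there is one. The first 3 are parents described below, and each parent after them stands above its copy or paralog.
Rplp0, chr12:46718376-46718405, minus strand: gaccgcaccgcacttCTCTCgccaggcgtc
Rpl14, chr8:129163605-129163634, plus strand: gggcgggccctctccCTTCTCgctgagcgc
Rpsa, chr8:128728864-128728893, plus strand: cctttccgcgctaccctggaacgggtccgt
Rpl17, chr18:70856261-70856290, plus strand: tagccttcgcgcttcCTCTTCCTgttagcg
Rpl17l5, chr10:45862425-45862454, minus strand: taaatgttatcctttataagagttgccttg
Rps27, chr2:177964592-177964621, minus strand: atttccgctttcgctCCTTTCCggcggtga
Rps27l, chr8:76443643-76443672, plus strand: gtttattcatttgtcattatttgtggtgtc
Rplp1, chr8:71290858-71290887, minus strand: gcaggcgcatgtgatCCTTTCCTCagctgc
Rplp1l1, chr7:15237261-15237290, plus strand: atgccagtacctccaaaacaaatggggttc
Rpl22, chr5:168117946-168117975, plus strand: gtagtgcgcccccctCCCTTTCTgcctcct
Rpl22l1, chr2:113683181-113683210, plus strand: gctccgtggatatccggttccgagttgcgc
Rpsa, like 36 of the 59 parents with a window, had no pyrimidine start. The other parents shown do, from 5 bases in Rplp0 to 9 in Rplp1, and the copies and paralogs shown do not. Rpl17l5 and Rplp1l1 did hold such a run within 10 bases of their annotated starts, and Rps27l and Rpl22l1 did not. Among the parents, the 43 probes of genes with a pyrimidine start had a median log2 difference of 0.29 between TBI and Sham and the 61 probes of genes without one 0.35. The 26 probes of parents with no window had a median of 0.29. As 45 of the 59 parents held the run within 10 bases, this split follows the annotated base and does not separate genes with the motif from genes without it.

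In TBI against Sham, parent ribosomal protein transcripts stood slightly higher in TBI over nearly the whole set, and few of the single differences passed the test. The median log2 difference of the 130 parent probes was 0.31 (0.29 for the 60S and 0.34 for the 40S proteins) against 0.00 for all kept probes, and 115 of the 130 were above 0 against 50.1% of all kept probes. By limma, 21 of the 143 members were called (19 higher, 2 lower), which is 14.7% of the members against 16.6% of all kept probes. Among the parents, 18 probes of 15 genes rose (13.8%, against 8.3% of all kept probes) and 1 fell (8.32% of all kept probes fell). Every TBI array was above both Sham arrays for 58 of the 130 parent probes, against 20.9% of all kept probes. The count of 21 called members rests on few arrays. It was 8 without Sham replicate 1, 4 without Sham replicate 2, 6 without TBI replicate 2, 12 without TBI replicate 3 and 62 without TBI replicate 1, the array with the fewest probes above background. Under the methods' t-test 18 members passed unadjusted with the fold limit of 1.2 and 0 after Benjamini-Hochberg adjustment, and limma gave 63 members with an unadjusted p under 0.05.

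**Figure D1:**
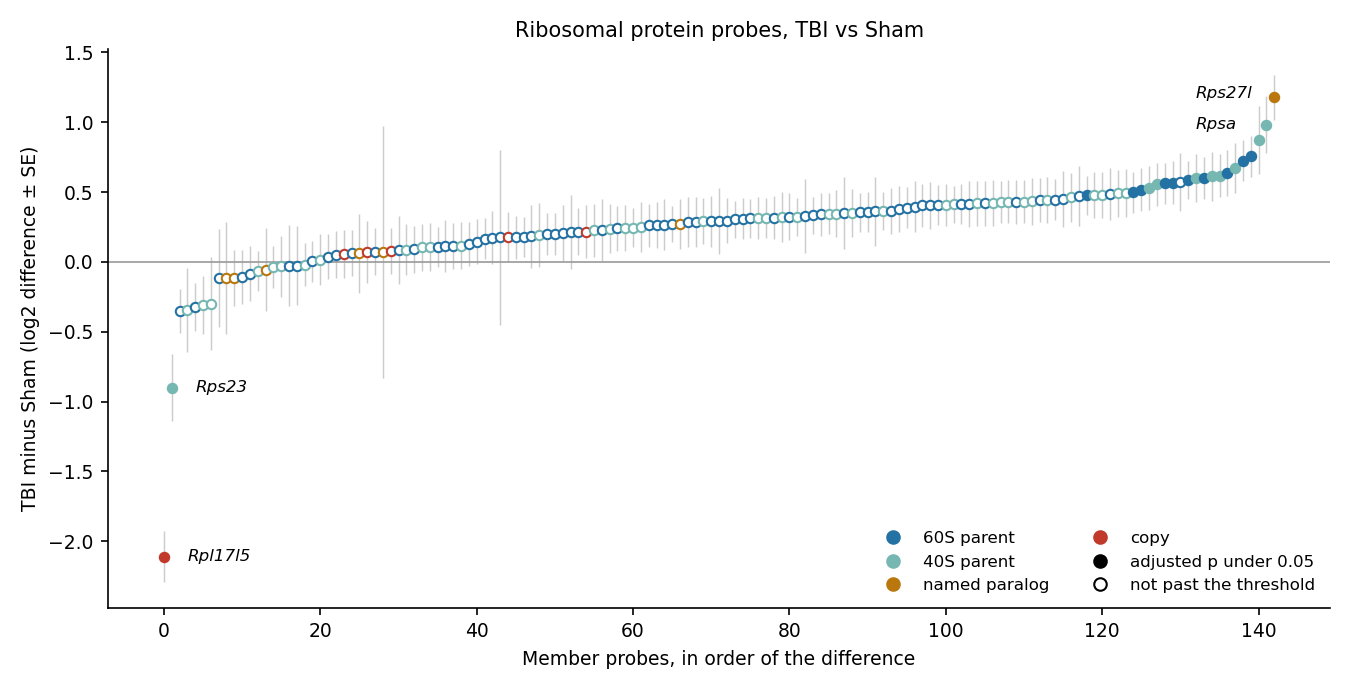
Log2 difference between TBI (3 arrays) and Sham (2 arrays), with its SE, for each of the 143 kept member probes, ordered by the difference. Filled points have an adjusted p under 0.05. Most points lie a little above 0, and Rpl17l5 at -2.11 and Rps27l at 1.18 lie at the ends.

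Among the parents that rose, the acidic stalk protein Rplp0, which anchors the lateral stalk that recruits translation factors and is often used as a reference gene, had both of its probes called. Probe A_43_P14914 read 4.21 and 4.24 in Sham, 4.8, 5.13 and 5.02 in TBI, 5.05, 5.06 and 5.07 in TBI+Imipramine, 4.73, 4.55 and 4.94 in TBI+Prozac, and 4.93, 4.73 and 4.95 in TBI+Zoloft. All 12 arrays of injured rats were thus above both Sham arrays. The TBI to Sham difference was 0.76 (SE 0.15, limma adjusted p = 0.0052), and for probe A_64_P047118 it was 0.64 (SE 0.16, adjusted p = 0.02). The call of the second probe was lost without Sham replicate 1 (0.56, adjusted p = 0.13), Sham replicate 2 (0.71, adjusted p = 0.069) or TBI replicate 2 (0.54, adjusted p = 0.069), and that of the first with normexp background correction (0.40, adjusted p = 0.086). The other stalk proteins did not pass, with log2 differences of 0.31 for Rplp2 and -0.32 for Rplp1.

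Rpl14, a 60S protein, also had both probes called, A_64_P035993 at 0.72 (SE 0.15, limma adjusted p = 0.0073) and A_44_P412301 at 0.59 (SE 0.14, adjusted p = 0.014). The first probe read 2.45 and 2.25 in Sham and 2.87, 3.27 and 3.08 in TBI, with no overlap. Without Sham replicate 2 its difference was 0.62 and its adjusted p 0.076. The second probe was not called without Sham replicate 1 (0.61, adjusted p = 0.071), Sham replicate 2 (0.56, adjusted p = 0.094) or TBI replicate 2 (0.51, adjusted p = 0.052).

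Rpsa, the laminin receptor protein of the 40S subunit, had the largest difference among the parents, but on 1 of its 2 probes. A_64_P173102 read 1.86 and 1.55 in Sham, 2.43, 2.88 and 2.75 in TBI, 2.92, 2.81 and 2.90 in TBI+Imipramine, 2.57, 3.29 and 2.76 in TBI+Prozac, and 2.39, 2.29 and 2.35 in TBI+Zoloft, a TBI to Sham difference of 0.98 (SE 0.20, limma adjusted p = 0.0067). A_64_P036631 read 0.56 and 0.56 in Sham and -0.56, 0.49 and 0.73 in TBI, a difference of -0.35 with overlap between the groups (adjusted p = 0.48). Without Sham replicate 2 the first probe's difference was 0.83 and did not pass (adjusted p = 0.076), and without TBI replicate 1 the second probe's was 0.04.

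Rps2, a 40S protein near the mRNA entry site, was called on 2 of its 4 probes, A_64_P020814 at 0.87 (SE 0.24, limma adjusted p = 0.029) and A_64_P018918 at 0.67 (SE 0.18, adjusted p = 0.022). A_64_P020814 read 2.84 and 2.53 in Sham, 3.29, 3.73 and 3.66 in TBI and 3.36, 4.38 and 3.64 in TBI+Prozac, where replicate 2 was the highest array for this probe and for the called probe of Rpsa. Its call was lost without Sham replicate 1 (1.03, adjusted p = 0.071), Sham replicate 2 (0.72, adjusted p = 0.21), TBI replicate 2 (0.79, adjusted p = 0.089) or TBI replicate 3 (0.82, adjusted p = 0.063), and that of A_64_P018918 without Sham replicate 1 (0.42, adjusted p = 0.22) or TBI replicate 2 (0.60, adjusted p = 0.074).

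Rps23, a 40S protein of the decoding centre, had probes on both sides of 0. A_64_P065502 fell by 0.90 (SE 0.24, limma adjusted p = 0.024), from 1.32 and 0.92 in Sham to -0.22, 0.34 and 0.53 in TBI. A_64_P049904 differed by 0.42 upward (adjusted p = 0.099) and A_64_P031072 by -0.31 (adjusted p = 0.35). The fall did not pass without Sham replicate 1 (-0.70, adjusted p = 0.18), Sham replicate 2 (-1.1, adjusted p = 0.051) or TBI replicate 1 (-0.68, adjusted p = 0.054).

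Some parents are named whatever their values, for their use or function. Of these, Rps6, the 40S substrate of S6 kinase, was called on A_64_P045330 (0.61) and not on A_64_P112093 (0.42). Rpl11 (0.52) was called, while Rpl5 (0.41), with which it binds Mdm2 in the nucleolar stress response, was not. Rpl22, an RNA-binding 60S protein, was called on A_64_P010520 (0.57) and not on A_64_P126428 (0.30). Each of these 3 calls was lost when either Sham array was left out, and leaving out TBI replicate 2 or TBI replicate 3 also ended them. The reference genes other than Rplp0 did not pass, with log2 differences of 0.49 for Rps18, 0.05 for Rpl13a, 0.04, 0.06 and 0.23 for the 3 probes of Rpl32 (the last with 1 Sham array, its spot on the other being flagged), and 0.36 and 0.18 for the 2 probes of Rpl19. Rps18 and Rpl5 were called with quantile normalization (0.38 and 0.37, adjusted p = 0.0099 and 0.0064) and without TBI replicate 1 (0.63 and 0.53, adjusted p = 0.018 and 0.017). Rps27a, which encodes ubiquitin joined to a 40S protein, had differences of 0.09 and -0.30 that did not pass.

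The second Rpl19 probe, A_64_P029701, did not follow the groups. Its values split in each group but one, at 4.54 and 2.64 in Sham, 3.88, 4.44 and 2.97 in TBI, 4.38, 4.42 and 3.08 in TBI+Imipramine and 4.36, 2.84 and 4.36 in TBI+Prozac, and were 3.09, 2.88 and 3.03 in TBI+Zoloft. The other probe, A_64_P128938, lay between 4.04 and 4.69 on all 14 arrays. Over the 44 parent genes with several kept probes, the probes of 34 had the same sign of the TBI to Sham difference, and the gap between a gene's lowest and highest probe had a median of 0.18 and reached 1.33. All probes were called for 2 of these genes and some of the probes for 10.

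Among the paralogs, Rps27l, a p53 target that makes a protein close to Rps27, had the largest upward difference of all members. It read 0.21 and 0.35 in Sham, 1.35, 1.62 and 1.42 in TBI, 1.78, 2.01 and 1.76 in TBI+Imipramine, 1.48, 1.19 and 1.62 in TBI+Prozac, and 1.66, 1.34 and 1.5 in TBI+Zoloft. All 12 arrays of injured rats were above both Sham arrays. Levels rose 2.26-fold in TBI against Sham (log2 1.18, SE 0.16, limma adjusted p = 0.00076), and the difference from Sham was 1.56 in TBI+Imipramine, 1.15 in TBI+Prozac and 1.22 in TBI+Zoloft, each with a limma adjusted p of 0.0016 or less. These 3 comparisons share the Sham arrays with the first. Against TBI itself the drug groups differed by 0.39, -0.03 and 0.04, and none passed. Its parent Rps27, a 40S zinc-finger protein, differed between TBI and Sham by 0.25 and 0.12 on its 2 probes (adjusted p = 0.38 and 0.68). The call of Rps27l against Sham held under every limma alternative fitted, for all 4 groups of injured rats.

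The other paralogs did not pass. Rpl22l1, the paralog of Rpl22, differed between TBI and Sham by 0.06 on A_64_P053916 and 0.27 on A_64_P085700. Rpl36al1 differed by -0.06, both Rps4y2 probes by -0.12, and Rpl39l1 by 0.07 with an SE of 0.90, its signal being above background on 12 of 14 arrays.

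Rpl17l5, a copy named after the 60S protein Rpl17, gave the largest difference of all members and in the opposite direction to most of the parents. It was already among the genes named in earlier results of these data. Probe A_64_P089375 read -2.18 and -2.19 in Sham and -4.24, -4.29 and -4.36 in TBI, a fall of 4.32-fold (log2 -2.11, SE 0.18, limma adjusted p = 4.6e-05). In the drug groups it read -2.84, -2.61 and -2.58 in TBI+Imipramine, -3.62, -3.18 and -3.01 in TBI+Prozac, and -2.83, -3.03 and -2.60 in TBI+Zoloft. The 9 drug arrays thus lay between the Sham and the TBI arrays without overlap with either. Its second probe, A_64_P089377, lay between 1.15 and 1.95 on all arrays and differed between TBI and Sham by 0.06 (adjusted p = 0.86). The parent Rpl17 differed by 0.00 on A_64_P020642 and 0.27 on A_64_P029646 (adjusted p = 0.99 and 0.18). The files hold no probe sequences, and which of the transcripts of Rpl17 and its copies each probe binds was not tested.

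**Figure D2:**
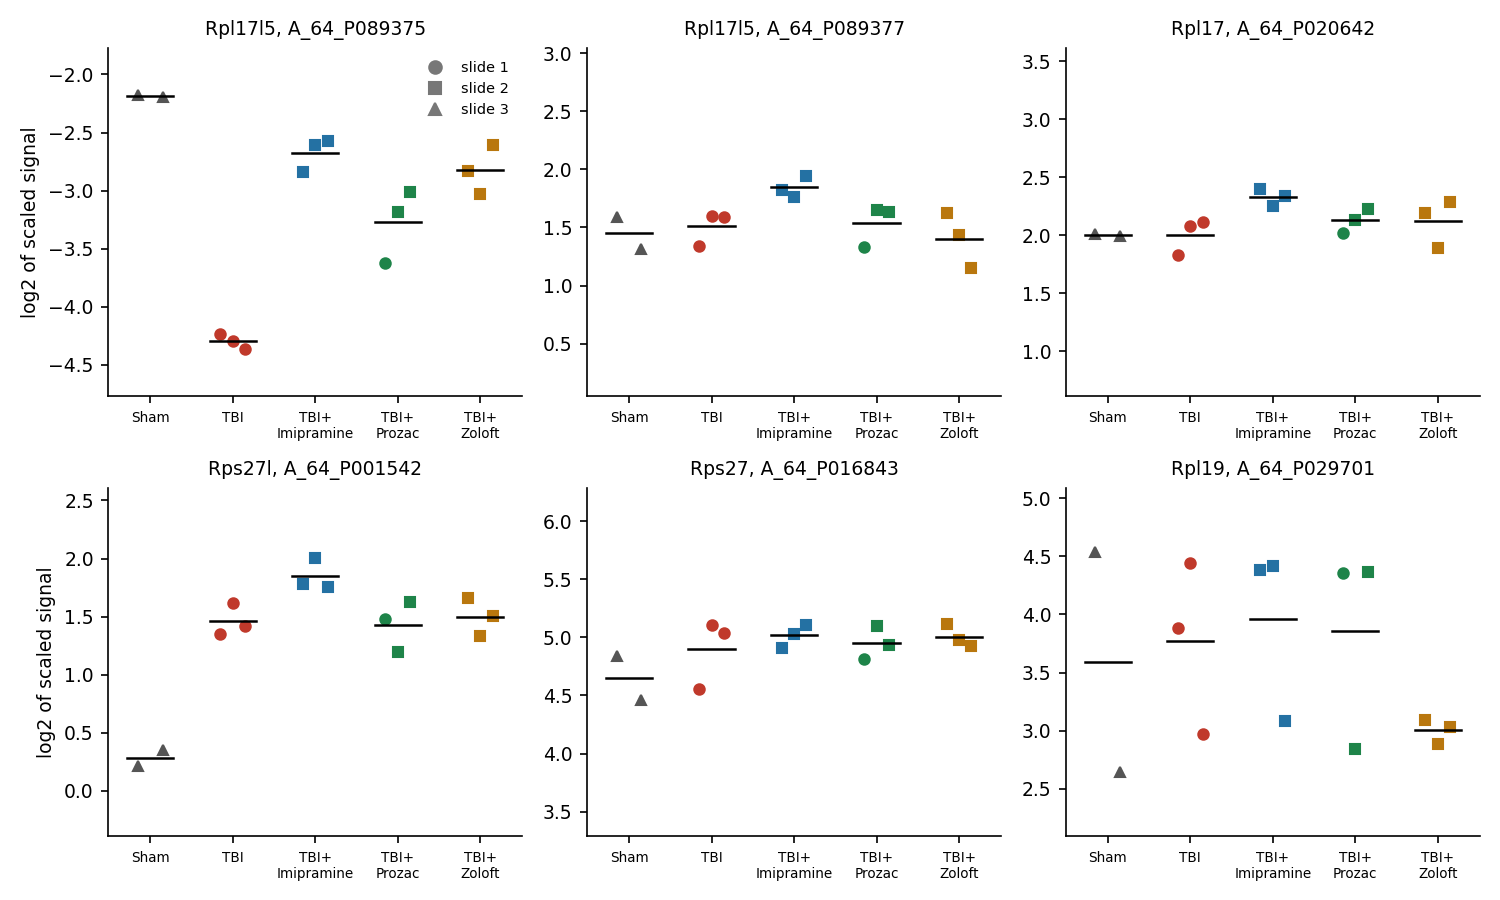
Log2 of scaled signal on each array for both Rpl17l5 probes, one Rpl17 probe, Rps27l with one Rps27 probe, and Rpl19 probe A_64_P029701, with each panel spanning the same range on its axis. Bars are group means and marker shapes are slides. The first Rpl17l5 probe is lowest on the 3 TBI arrays, next lowest on the TBI+Prozac array that shares their slide, and highest in Sham.

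The other probes counted as copies did not pass. Rplp1l1 differed between TBI and Sham by 0.08, against -0.32 for its parent Rplp1. Rpl37l1, the symbol that RefSeq now gives to the gene once called Rpl37, differed by 0.07, 0.18 and 0.22 on its 3 probes. It is counted as a copy by its symbol alone and may be the parent gene.

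In the comparisons of each drug with TBI, the question was which transcripts moved under treatment. In the main scaling the parents' median did not lie above that of all kept probes. The median of the parents was 0.19 in TBI+Imipramine, against 0.20 for all kept probes, -0.01 in TBI+Prozac against 0.15, and -0.01 in TBI+Zoloft against 0.01. Taken relative to all kept probes, the parents' median was -0.01, -0.15 and -0.03. Its sign turned for TBI+Imipramine with quantile normalization (0.08) and normexp (0.04), and stayed negative for TBI+Prozac (-0.04 and -0.11). Limma called 2 members in TBI+Imipramine (1.4% of the members against 2.85% of all kept probes), 1 in TBI+Zoloft (0.699% against 1.38%) and 0 in TBI+Prozac, where 0.00577% of all kept probes were called, 1 member had an unadjusted p under 0.05 and the methods' t-test called 0 after adjustment. The member called for both TBI+Imipramine and TBI+Zoloft was the copy Rpl17l5 on A_64_P089375, higher than TBI by 1.62 (SE 0.16, limma adjusted p = 0.0044) and by 1.47 (SE 0.16, adjusted p = 0.011). In TBI+Prozac its difference was 1.02 (adjusted p = 0.12). These 3 values share the TBI arrays. Every TBI+Imipramine array was above every TBI array for 50 of 130 parent probes, against 25.2% of all kept probes. In that comparison 128 of 130 parent differences were above 0, beside the shift of 0.20 over all kept probes. Every TBI+Prozac array was above every TBI array for 0 of 130 parent probes, against 14.9% of all kept probes.

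The slide moved with these values. On slide 1, TBI+Prozac replicate 1 read -3.62 for Rpl17l5 and was the lowest drug array, and with the slide as a fixed term the differences were 1.09, 0.67 and 0.94 for TBI+Imipramine, TBI+Prozac and TBI+Zoloft, none called (adjusted p = 0.48, 0.54 and 0.82). Only TBI+Prozac had arrays on slides 1 and 2, so the slide term rests on its replicate 1 against its replicates 2 and 3. TBI shared no slide with TBI+Imipramine or TBI+Zoloft, so slide and drug cannot be told apart for these groups. Within slide 1 alone, TBI+Prozac replicate 1 was 0.67 above TBI, which is the same contrast as with the slide term and not a second check. Without that array the TBI+Prozac difference was 1.2 and was called (adjusted p = 0.0053), and without TBI+Zoloft replicate 3 the TBI+Zoloft difference was 1.37 and was not (adjusted p = 0.056).

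The other member called in TBI+Imipramine was Rpl7a, a 60S protein. It read 0.25, 0.54 and 0.42 in TBI, 1.06, 1.08 and 0.93 in TBI+Imipramine, and 0.75 and 0.77 in Sham, a difference from TBI of 0.62 (SE 0.14, limma adjusted p = 0.037) beside the shift of 0.20 over all kept probes. Leaving out any 1 of the 6 arrays ended this call, with differences from 0.54 to 0.69 and adjusted p from 0.052 to 0.16, and with the slide as a fixed term the difference was 0.32. None of the 25 probes of the reference, stalk and signalling genes above (Rplp0, Rps18, Rps6 and the others) was called for any drug against TBI, with log2 differences from 0.04 to 0.65 in TBI+Imipramine, -0.24 to 0.24 in TBI+Prozac and -0.77 to 0.48 in TBI+Zoloft, the lowest of these being the Rpl19 probe with split values.

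Each array was also given a single value, the median deviation of its parent probes from their means over all arrays, less the same median over all kept probes. It was -0.17 and -0.30 in Sham, 0.04, 0.17 and 0.07 in TBI, -0.00, 0.04 and 0.18 in TBI+Imipramine, -0.09, -0.16 and 0.00 in TBI+Prozac, and 0.09, 0.08 and -0.04 in TBI+Zoloft. The Sham arrays were the 2 lowest of the 14, and the TBI+Prozac arrays lay below all 3 TBI arrays, with replicate 1 at -0.09 against 0.04 to 0.17 on the slide they share. The mean difference between TBI+Prozac and TBI was -0.18 and became -0.06 with quantile normalization.

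**Figure D3:**
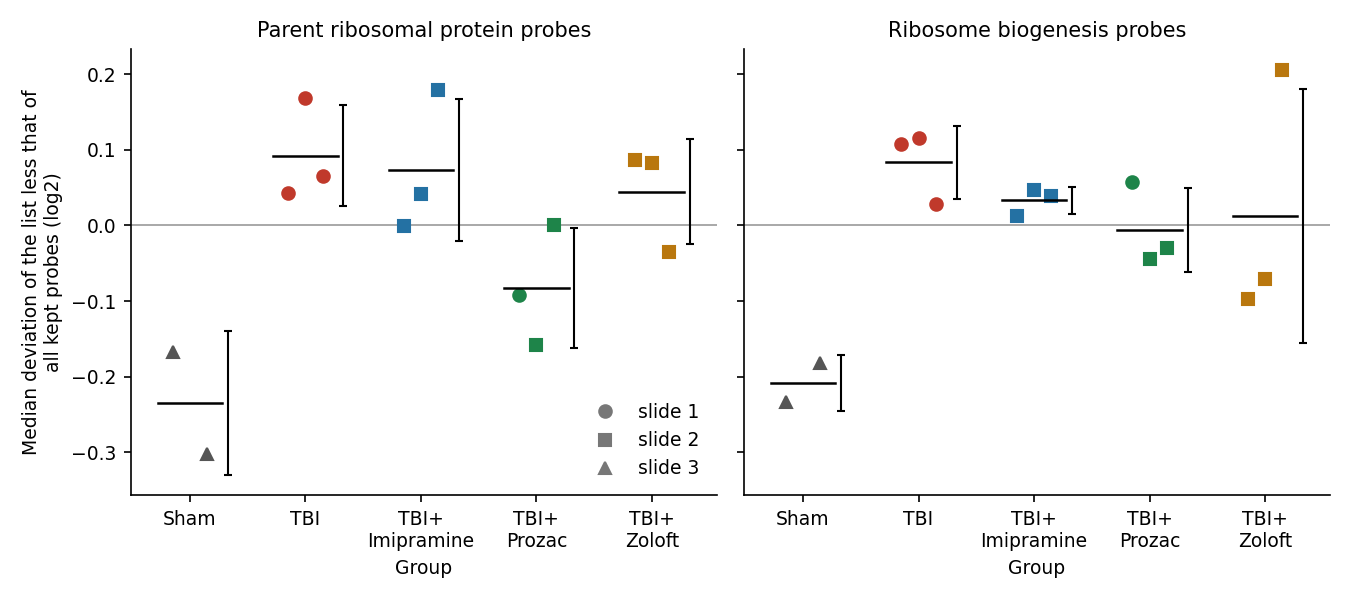
Median deviation of the parent ribosomal protein probes (left) and of the ribosome biogenesis probes (right) on each array, less that of all kept probes, in log2 units. Bars are group means with the SD beside them, and marker shapes are slides. Both Sham arrays lie lowest in both panels.

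Against Sham, the 3 drug groups differed from each other in how many members passed. In TBI+Imipramine 67 of 143 members were called, all of them higher, which is 46.9% of the members against 23.4% of all kept probes (19.8% higher). These were 66 parent probes of 47 genes and Rps27l. The parents' median was 0.50 against 0.18 for all kept probes, a gap of 0.31, beside 0.31 for TBI against the same Sham arrays. It was 0.25 both with quantile normalization and from the series table, against -0.06 and -0.07 for all kept probes. Of 130 differences 129 were above 0. Every TBI+Imipramine array was above both Sham arrays for 116 parent probes, against 42.0% of all kept probes. The largest were Rpsa on A_64_P173102 (1.17, SE 0.20), Rps2 on A_64_P020814 (1.1, SE 0.24), Rpl12 on A_64_P071825 (1.06, SE 0.25) and Rpl14 on A_64_P035993 (1.02, SE 0.15), with limma adjusted p from 0.0009 to 0.01. The other Rpsa probe, A_64_P036631, differed by 0.15 and was not called. Among the reference and stalk genes that had not passed in TBI, Rps18 (0.73, adjusted p = 0.0092), Rpl5 (0.67, adjusted p = 0.0054), Rplp2 (0.52, adjusted p = 0.023) and Rpl17 on A_64_P029646 (0.45, adjusted p = 0.027) rose, while Rpl13a (0.26) and the probes of Rpl19 and Rpl32 did not pass. Rpl12, a protein of the base of the 60S stalk, read 2.21 and 1.52 in Sham and 2.62, 3.03 and 3.14 in TBI+Imipramine. Without Sham replicate 2 the count was 14, without Sham replicate 1 it was 39, without TBI+Imipramine replicate 1 it was 41 and without TBI+Imipramine replicate 2 it was 36, and neither Rpl12 (0.72) nor Rps2 (0.94) was called without Sham replicate 2.

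In TBI+Prozac 17 members were called against Sham (16 higher, 1 lower), 11.9% of the members against 14.9% of all kept probes (11.7% higher). Every TBI+Prozac array was above both Sham arrays for 74 parent probes, against 36.7% of all kept probes. The 15 parent probes called were from 12 genes, with a parents' median of 0.29 against 0.14. That median was 0.15 with quantile normalization and 0.10 from the series table, against -0.02 and -0.05 for all kept probes. The gap to all kept probes, 0.15, was 0.24 without Sham replicate 1, 0.08 without Sham replicate 2 and 0.27 with normexp. Rpsa on A_64_P173102 (1.17, SE 0.20, limma adjusted p = 0.004), Rps2 on A_64_P020814 (1.1, SE 0.24, adjusted p = 0.012), Rpl14 on A_64_P035993 (0.74, SE 0.16, adjusted p = 0.012, with 2 TBI+Prozac arrays because the spot was flagged on the other) and Rps2 on A_64_P018918 (0.71, SE 0.18, adjusted p = 0.02) were the largest parents. The other Rpsa probe, A_64_P036631, differed by -0.215 and did not pass (limma adjusted p = 0.68). Rpl17l5 on A_64_P089375 was the one called member that fell (-1.09, SE 0.18, adjusted p = 0.0037). The count was 6 without Sham replicate 1, 4 without Sham replicate 2, 5 without TBI+Prozac replicate 1 and 4 without TBI+Prozac replicate 3, and the calls named here other than those of Rpsa and Rpl17l5 were each lost without at least 1 of these arrays.

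In TBI+Zoloft 5 members were called against Sham, all higher, 3.5% of the members against 5.95% of all kept probes (4.16% higher). Every TBI+Zoloft array was nevertheless above both Sham arrays for 90 parent probes, against 19.9% of all kept probes. Besides Rps27l the called members were Rplp0 on A_43_P14914 (0.64, limma adjusted p = 0.024), Rpl22 on A_64_P010520 (0.57, adjusted p = 0.048), Rpl18 (0.53, adjusted p = 0.037) and Rpl14 on A_44_P412301 (0.52, adjusted p = 0.047). The parents' median was 0.28 against 0.00 for all kept probes, close to that of TBI against the same Sham arrays. Between 1 and 2 members were called when any 1 of the 5 arrays was left out, and Rps27l was called each time.

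**Figure D4:**
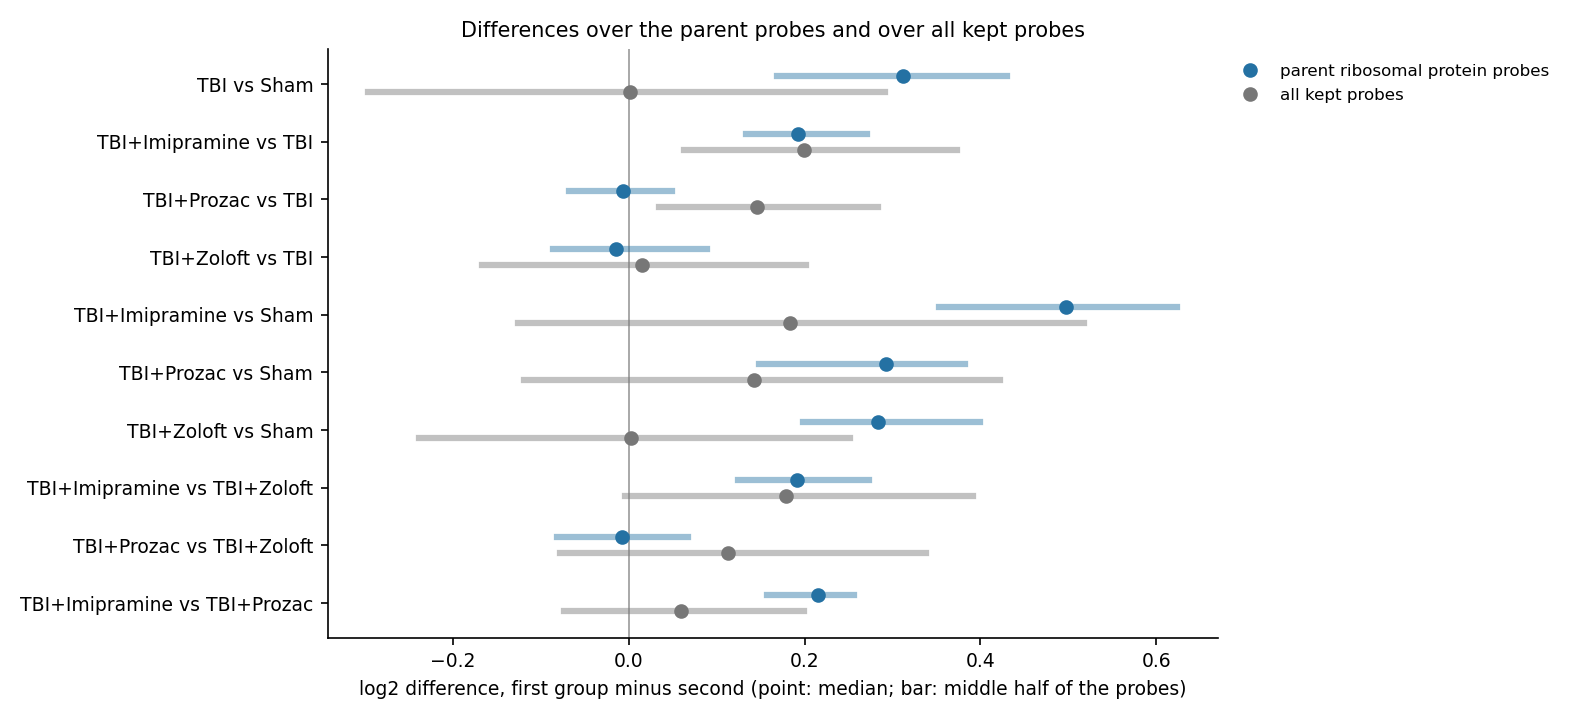
Median log2 difference (points) and interquartile range (bars) of the 130 parent probes and of all 17322 kept probes in each comparison. The parents lie above all kept probes in the 4 comparisons with Sham, close to them in TBI+Imipramine vs TBI and TBI+Zoloft vs TBI, and below them in TBI+Prozac vs TBI.

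Between the drugs, TBI+Imipramine and TBI+Zoloft, whose 6 arrays shared slide 2, differed in 3 members by limma (2.1%, against 5.29% of all kept probes). Rps4x, a 40S protein encoded on the X chromosome, read 2.97, 2.94 and 2.87 in TBI+Imipramine and 2.51, 2.43 and 2.25 in TBI+Zoloft (0.53, SE 0.14, adjusted p = 0.047). Rpl14 on A_64_P035993 read 3.35, 3.37 and 3.39 against 2.98, 2.78 and 2.79 (0.52, SE 0.13, adjusted p = 0.046). The other Rpl14 probe, A_44_P412301, had means of 4.49 in TBI+Imipramine and 4.31 in TBI+Zoloft and was not called. Probe A_44_P778019, one of 3 for the 60S protein Rpl28, was not well above background on any TBI+Zoloft array and was at least 1.32-fold higher in TBI+Imipramine (measured means -5.90 and -6.87, adjusted p = 0.048), but with normexp the difference was -0.03. All 3 calls were lost with quantile normalization, normexp or the series table. These differences stand beside a shift of 0.18 over all kept probes. The calls of Rpl14 and Rps4x were each lost without TBI+Imipramine replicate 1, 2 or 3 or without TBI+Zoloft replicate 2 or 3, and that of Rpl28 without any 1 of the 6 arrays.

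TBI+Prozac and TBI+Zoloft differed in 0 members by limma, where 3.69% of all kept probes were called, 5 members had an unadjusted p under 0.05 and the methods' t-test called 0 after adjustment. TBI+Imipramine and TBI+Prozac also differed in 0 members (0.00577% of all kept probes called, 14 members with an unadjusted p under 0.05, 0 by the methods' t-test after adjustment). In that comparison the parents' median was 0.22 against 0.06 for all kept probes, 128 of 130 differences were above 0, and for 63 parent probes every TBI+Imipramine array was above every TBI+Prozac array, against 11.3% of all kept probes. The largest differences were those of the 2 Rpl12 probes, 0.83 (adjusted p = 0.72) and 0.64 (adjusted p = 0.72).

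Lists of genes around the ribosome were set beside the members in TBI against Sham. Of 5 probes of 3 ribosomal protein genes whose symbols fall outside the naming rule, only that of Rack1 was called. Rack1, a scaffold protein of the 40S subunit, rose (0.58, SE 0.13). In this comparison 8.3% of all kept probes rose and 8.32% fell, with a median of 0.00. Among 69 ribosome biogenesis probes 8 rose (11.6%) and none fell, with a median of 0.32, led by Myc (1.17, SE 0.35), which drives transcription of ribosome genes, and Sbds (0.86, SE 0.20), which readies the 60S subunit for translation. Among 57 translation factor probes 10 rose (17.5%) and 3 fell, with a median of 0.18. Those that rose were led by Eif1ax (0.90), a start site scanning factor, and Eif4a1 (0.74), an RNA helicase, and those that fell were Tpt1 (-1.70), Eif3h (-1.19) and 1 probe of the elongation factor Eef1a1 (-0.51). Among 76 probes of mitochondrial ribosomal proteins, which serve a separate ribosome, 3 rose (3.95%) and 2 fell, with a median of 0.16, and Mrpl10 was called upward on 1 probe (0.70) and downward on another (-0.82). Of 21 mTOR and S6 kinase pathway probes, Eif4ebp1, a translation repressor that mTOR inactivates, rose (1.21, SE 0.21, limma adjusted p = 0.003) and its relative Eif4ebp2 fell (-0.76, SE 0.23, adjusted p = 0.041), with a median of -0.07. In TBI+Imipramine against Sham 25 of the translation factor probes (43.9%) and 26 of the ribosome biogenesis probes (37.7%) rose and none fell, where 19.8% of all kept probes rose and their median was 0.18.

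Cell type markers moved between the same groups, and their part in these results was not tested. In whole tissue, fewer cells of a type and less RNA per cell cannot be told apart. The summed level of 9 microglia and macrophage probes (6 of 6 genes kept) was 1.96 to 2.56 in Sham and 2.85 to 3.02 in TBI on the log2 scale, and 3 of them rose (Cd68, Ptprc and Itgam). Of 9 astrocyte probes (5 of 5 genes kept) 3 rose, those of Gfap, Aqp4 and Slc1a3, and their summed level was 4.38 to 4.59 in Sham and 4.23 to 4.93 in TBI. Hippocampal neuron markers (6 of 7 genes with a probe kept, Prox1 being the one not kept) were 3.98 to 4.07 in Sham and 3.70 to 4.06 in TBI, and oligodendrocyte markers (5 of 5) were 6.35 to 6.62 and 5.63 to 6.38, with none called in either list. Endothelial markers (4 of 4) were -0.43 to -0.40 and 0.13 to 0.32, with Cldn5 called upward, and blood markers (6 of 6) were 6.16 to 6.62 and 6.09 to 6.38. Choroid plexus markers, of which 3 of 8 genes were kept, ranged from -0.76 to 4.87 in Sham and from -0.58 to 4.84 in TBI, so that arrays of one group differed widely. In TBI+Imipramine, where the most members passed against Sham, 8 of the 9 microglia and macrophage probes rose and their summed level was 3.15 to 3.41.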

How the data were processed

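The authors deposited Agilent Feature Extraction output (version 11.5.1.1, per the file headers) for 14 rat gene expression arrays of 1 colour, with processed signal intensity per spot after background subtraction, and a series table of intensity values scaled per array, on a linear scale with a floor of 0.01, whose values above background lay within 5% of 1 constant per array for 99.8% to 99.9% of probes. The miRNA arrays of the series were not used here. Each probe was the mean of its spots without an outlier flag. A probe whose spots were all flagged on an array was missing there and was left out for that array alone. Each array was scaled by the 75th percentile of its detected probes, after the study's methods, and put on the log2 scale. A probe counted as detected on an array when a share of more than 0.5 of its spots was well above background, and was kept when any group had it detected throughout. Of the 17322 kept probes, 17251 had a value on every array. One limma fit (limma 3.58.1, R 4.3.3) with 5 group means covered all arrays, two-sided, with Benjamini-Hochberg adjustment. The script was tested on simulated data. P-values measure the spread between these arrays, and their number (2 or 3 a group) limits the precision.

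Groups came from the sample labels. Probes were named from the accession of the array design through a RefSeq table (GRCr8), where 11902 kept probes had a symbol. The files' own annotation uses another build (rn4, per the file headers), so the only coordinates given are those of the RefSeq promoter windows. Symbols ending in -ps or in l and a number were copies, except Rpl7l1, Rpl22l1, Rpl26l1, Rpl36al1 and Rpl39l1, which with Rpl3l, Rps27l and Rps4y2 were set apart as paralogs. Members, gene lists and markers were chosen with earlier results of these data known. Named in each comparison were the called members that did not overlap between the groups and were above background in both (all if 10 or fewer, otherwise the 5 largest in each direction), those above background in 1 group with a bound, set against the lowest signal above background on each dim array, and a fixed set of reference, stalk and signalling genes with the copies and their parents. Other probes of a named gene, the split values of Rpl19, members of the lists and the Rpl12 probes between drugs were named after their values were seen. Alternatives were quantile normalization, normexp on median signals (offset 50), no filter or a stricter filter on dim probes, the series table, flagged spots kept, slide as a fixed or random block, the replicate number as a block, each array left out, and the methods' t-test. TBI+Prozac within 1 slide was added after seeing the data.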

Additional observations from a re-analysis of the deposited data

How the results depend on the processing

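Counts of called members moved with the processing in most comparisons, and the cause was not tested. Counts by the unadjusted t-test in this section include the fold limit of 1.2 unless stated. In TBI against Sham (21 members) the count was 50 with quantile normalization, 55 from the deposited series table and 5 with no filter on dim probes (which leaves out probes without a value on every array), 0 by the methods' t-test after Benjamini-Hochberg adjustment, and 4 to 62 with 1 array left out. In TBI+Imipramine against TBI (2) it was 1 with quantile normalization, the series table, no filter or the adjusted t-test, 5 with normexp, 0 with slide as a fixed term, 4 with slide as a random block, 12 by the unadjusted t-test with the fold limit, and 1 with any array left out. In TBI+Prozac against TBI (0) it was 1 by the unadjusted t-test and 0 to 1 with 1 array left out. In TBI+Zoloft against TBI (1) it was 3 with quantile normalization, 0 with slide as a fixed term, 2 and 0 by the unadjusted and adjusted t-test, and 0 to 1 with 1 array left out.

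Against Sham, the TBI+Imipramine count (67) was 35 with no filter, 38 by the adjusted t-test and 14 to 51 with 1 array left out. The TBI+Prozac count (17) was 4 with no filter, 0 by the adjusted t-test and 4 to 20 with 1 array left out. The TBI+Zoloft count (5) was 22 with quantile normalization, 27 from the series table, 13 with slide as a random block, 1 with no filter, 42 and 0 by the unadjusted and adjusted t-test, and 1 to 2 with 1 array left out. TBI+Imipramine against TBI+Zoloft (3) gave 0 with quantile normalization, normexp, no filter, the series table, slide as a fixed term and the adjusted t-test, 30 by the unadjusted t-test, and 0 to 3 with 1 array left out. TBI+Prozac against TBI+Zoloft (0) gave 1 with quantile normalization and with the series table and 2 by the unadjusted t-test, and TBI+Imipramine against TBI+Prozac (0) gave 17 by the unadjusted t-test. Without the fold limit that test gave 48 in TBI+Zoloft against Sham, 57 in TBI+Imipramine against TBI+Zoloft and 29 in TBI+Imipramine against TBI+Prozac. The parents' value per array differed between TBI and Sham by 0.33 (0.23 with quantile normalization), between TBI+Imipramine and TBI by -0.02 (0.076), and between TBI+Prozac and TBI by -0.18 (-0.055).

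Same-numbered arrays of different groups did not deviate together (26 pairs, r from -0.23 to 0.23, 2 of them over 0.1), and 2 of 14 arrays correlated best with their own number, so the numbers were not taken as pairs. With the replicate number as a block the counts were 12 in TBI against Sham, 1 in TBI+Imipramine against TBI, 42, 7 and 1 in TBI+Imipramine, TBI+Prozac and TBI+Zoloft against Sham, and 0 in TBI+Imipramine against TBI+Zoloft.

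Among called values named in the text, 1 changed sign: Rpl28 between TBI+Imipramine and TBI+Zoloft, at -0.033 with normexp. Of values between TBI and Sham that did not pass, Rpl17 on A_64_P020642 read -0.021 with quantile normalization and with the series table, -0.004 with normexp, -0.002 with slide as a random block, -0.044 with the replicate block and -0.05 to 0.093 with 1 array left out. Rpl32 on A_64_P040616 read -0.085 with quantile normalization, -0.151 with normexp, -0.01 with the replicate block and -0.014 to 0.175 with 1 array left out. Its probe A_64_P084747 read -0.079 with quantile normalization, -0.009 with the replicate block and -0.08 to 0.171 with 1 array left out. With quantile normalization Rps27 on A_64_P049885 read -0.036 and Rpl13a -0.063 (-0.041 to 0.224 with 1 array left out). Rpl22l1 on A_64_P053916 read -0.032 with the replicate block and -0.24 to 0.271 with 1 array left out. Leaving out 1 array also turned Rpl19 on A_64_P029701 (-0.772 to 1.122), Rpsa on A_64_P036631 (-0.599 to 0.043), Rpl17l5 on A_64_P089377 (-0.083 to 0.198), and Rps27a on A_64_P144208 (-0.888 to 0.291) and A_64_P367214 (-0.062 to 0.254). The calls of Rps27l against Sham in all 4 groups, and of Rpl17l5 on A_64_P089375 in TBI and TBI+Prozac against Sham, held under every alternative fitted with limma. Few arrays a group, and Sham on a slide of its own, limit all of these values.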
